A study of Mus musculus with 19 samples.

Results

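TEAD binding in mouse liver was compared between control livers and livers in which activated YAP had been induced for 7 days, using the 2 TEAD peak lists of a time series. The members were all peaks of these 2 lists, 5695 in the control livers (WT) and 38984 after 7 days (7 d), together 44679 of the 82869 peaks in the 6 lists of the series. Both groups were on the C57BL/6 background, and both received doxycycline food for 7 days. The control genotype was ROSA26-rtTA-IRES-EGFP; WT, and the induced genotype was ROSA26-rtTA-IRES-EGFP; tetYAP. According to the study's methods, the rtTA transactivator was released in hepatocytes by an albumin-driven Cre recombinase and then switched on a YAP S127A transgene, which limits the induction to cells in which that Cre was active. The antibody was raised against TEAD4 and is described there as also recognising TEAD1 and TEAD3. Ages were not given in the sources used here. The WT list came from 3 replicates and the 7 d list from 4 replicates, merged before peaks were called, so no spread between replicates and no p-value between the conditions can be given.

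TEAD proteins are DNA-binding transcription factors that recognise a short element with the core GGAATG. They have little activating capacity alone and recruit the coactivators YAP and TAZ, which the Hippo kinases hold in the cytoplasm by phosphorylation. In the liver this pathway limits organ size, and active YAP drives hepatocytes to proliferate and to lose their differentiated state.

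The sequences under 8 of the peaks described below show what the caller had placed at the summits. The first 3 have the highest pileup among the 7 d peaks that are absent from the WT list. They are labelled as only at 7 d in this sense, although all 3 had also been called after 3 days. The next 2 have the smallest p-values among the peaks found in both lists. The last 3 are 2 of the shared peaks whose rank rose most and the shared peak whose rank fell most. Each run is the mm9 plus strand, 50 bp on either side of the 7 d summit, and capitals mark the core GGAATG or its reverse complement.
Only at 7 d, intron of Exph5 (chr9:53133975-53134075): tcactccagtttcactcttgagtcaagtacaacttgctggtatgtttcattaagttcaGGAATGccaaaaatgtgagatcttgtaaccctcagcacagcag
Only at 7 d, between genes (chr16:89347301-89347401): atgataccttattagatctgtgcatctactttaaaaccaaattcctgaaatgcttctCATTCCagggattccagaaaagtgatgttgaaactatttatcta
Only at 7 d, between genes (chr7:78609112-78609212): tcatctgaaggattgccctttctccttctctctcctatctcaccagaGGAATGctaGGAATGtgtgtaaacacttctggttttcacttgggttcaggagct
Shared, upstream of Alb (chr5:90879164-90879264): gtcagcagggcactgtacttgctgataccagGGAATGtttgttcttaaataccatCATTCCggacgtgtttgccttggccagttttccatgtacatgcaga
Shared, near Plcb1 (chr2:134626130-134626230): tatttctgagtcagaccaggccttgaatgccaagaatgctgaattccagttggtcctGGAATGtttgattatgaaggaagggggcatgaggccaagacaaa
Shared, rank rose, intron of Fry (chr5:151254368-151254468): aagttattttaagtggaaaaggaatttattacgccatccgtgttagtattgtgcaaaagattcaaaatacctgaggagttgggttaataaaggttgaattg
Shared, rank rose, intron of Sh3bp4 (chr1:91000769-91000869): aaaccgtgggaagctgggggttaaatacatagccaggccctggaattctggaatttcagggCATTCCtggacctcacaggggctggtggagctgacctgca
Shared, rank fell, near Akap13 (chr7:82914860-82914960): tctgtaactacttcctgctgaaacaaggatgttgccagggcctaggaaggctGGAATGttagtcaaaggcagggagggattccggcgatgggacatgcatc
The core was present in 7 of these 8 windows. Among the windows labelled as only at 7 d, the one on chr7 held 2 cores on the same strand and a FOXA element (TGTTTAC) on the minus strand. The Alb window held 2 cores on opposite strands. The Exph5 and Plcb1 windows also held an AP-1 element (TGANTCA). The Fry window held none of these elements.

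Most TEAD peaks of the control liver were found again after 7 days of YAP, and most peaks at 7 d had no counterpart in the control list. Of the WT peaks, 5432 (95.4%, 95% Wilson interval 94.8 to 95.9) overlapped a 7 d peak by at least 1 bp, and 263 (4.62%, 4.10 to 5.19) did not. Of the 7 d peaks, 5516 (14.1%, 13.8 to 14.5) overlapped a WT peak and are called shared below. The other 33468 (85.9%, 85.5 to 86.2) are called added. The intervals cover counting over peaks only. A peak that is added passed the caller's p-value cutoff of 1e-05 at 7 d and not in WT, which does not show that TEAD was absent there in WT. In whole liver, binding in more cells and more binding per cell cannot be told apart.

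The depth of the merged libraries differed little, with 35168765 tags in WT and 38523843 at 7 d, a ratio of 1.10. The fragment length set by the caller differed more, with 400 bp in WT and 206 bp at 7 d. Fragments were extended to that length, so the WT list had wider peaks (median 539 bp against 372 bp) and a higher background, and its lowest pileup was 24 fragments against 16 at 7 d. When the 7 d background was raised by the ratio of these lengths, 1.94, and p-values were recomputed, 32352 of the 7 d peaks were kept and 26979 of them (83.4%) were added. When the 7 d list was cut to the strongest 5695 peaks, as many as the WT list holds, 2710 of them (47.6%) were added and 52.6% of WT peaks were found again.

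Pileup, the number of extended fragments at the summit, was read as a rank within each list, because it was not normalised between libraries. The shared peaks were mostly strong peaks of the induced liver. Their median pileup at 7 d was 76 fragments (interquartile range 50 to 115), against 31 (25 to 44) for the added peaks. Within the 7 d list the median shared peak stood at the 87.0 percentile of pileup and the median added peak at the 44.0 percentile. In 10 classes of rising pileup, the share of 7 d peaks that had a WT counterpart went from 1.57% (1.21 to 2.05) in the lowest class to 59.0% (57.5 to 60.6) in the highest. Strong added peaks were nevertheless numerous: 1611 of the 3932 peaks in the highest class (41.0%, 39.4 to 42.5) had no WT peak, and 2248 added peaks exceeded the median pileup of the shared peaks.

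**Figure D1:**
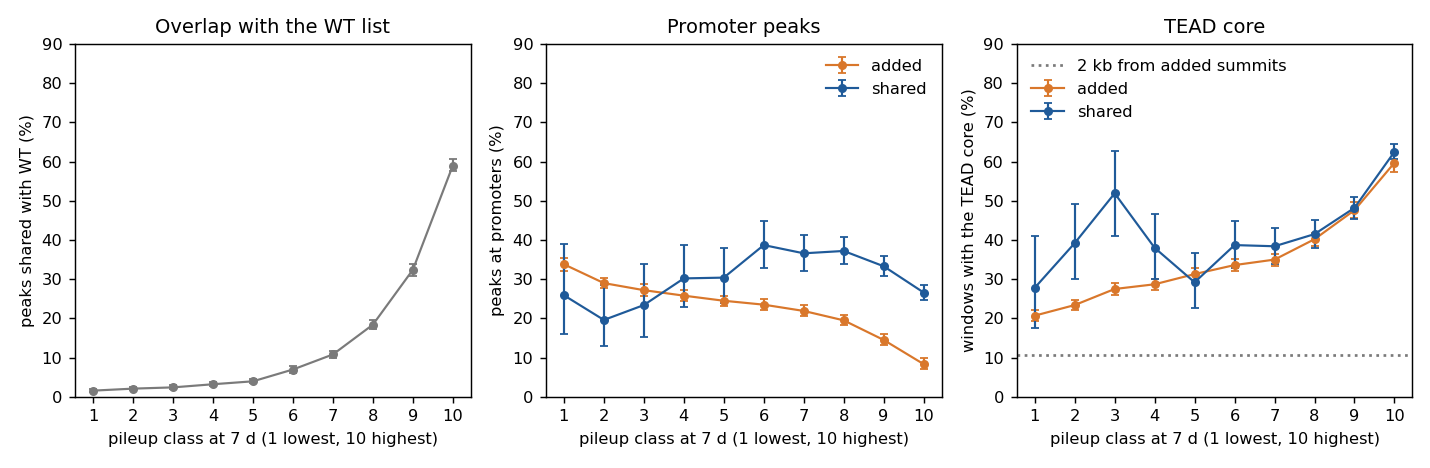
The 7 d peaks in 10 classes of pileup (horizontal axis, 1 lowest, 10 highest), with the percent shared with WT (left), the percent at promoters (middle) and the percent with the TEAD core within 100 bp of the summit (right). Bars are 95% Wilson intervals, and the dotted line is the 10.7% of windows 2 kb from added summits. Added peaks (orange) at promoters went down from 33.8% to 8.33% across the classes while their TEAD core share went up from 20.7% to 59.7%, close to the 62.5% of shared peaks (blue) in the highest class.

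The strongest shared peaks were strong in both conditions, and the order of the others was kept in part. Across the 5432 shared WT peaks, each set beside its strongest 7 d peak, the Spearman coefficient of the pileups was 0.623, given as a description, since the peaks come from the same 2 merged libraries and share mappability and open chromatin. Of the 576 shared peaks in the upper 10% of WT pileup, 536 (93.1%) were in the upper 10% at 7 d and 0 were below the 7 d median. Of the 566 in the lowest 10% of WT, 39 (6.89%) were in the upper 10% at 7 d. For comparison, 42.1% of all shared 7 d peaks were in that upper 10%. Because the 7 d list was longer and its extra peaks were mostly weak, 5003 shared peaks (92.1%) had a higher percentile at 7 d, and this count alone is no sign of a change. Ranked among the shared peaks only, the median shift was -0.33 percentile points, with quartiles of -13.4 and 14.6. Shared peaks with a YAP peak at 7 d (759) were already strong in WT, with a median pileup of 56 fragments against 39 for the 4673 without one, and had medians of 154 and 70 at 7 d.

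**Figure D2:**
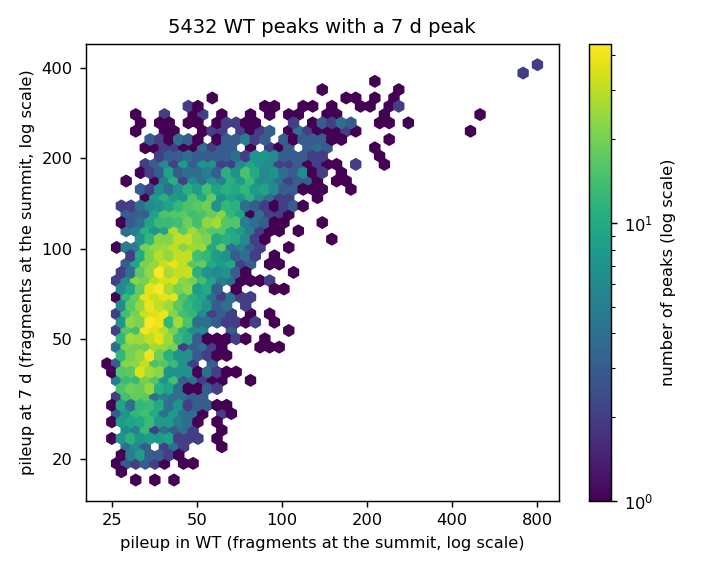
Pileup of the 5432 WT peaks that had a 7 d peak, in WT (horizontal axis) and at 7 d (vertical axis), both in fragments at the summit on log scales, with the number of peaks as colour. Weak WT peaks spread over a wide range at 7 d, and strong WT peaks were strong at 7 d. The pileups of the 2 lists were computed with different fragment lengths, so the position of the cloud relative to equality is not a measure of change.

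The 5 shared peaks whose rank rose most were near the bottom of the WT list and in the upper part of the 7 d list. In an intron of Fry, a scaffold protein with links to the Hippo-related NDR kinases, pileup was 26 fragments in WT, the 0.53 percentile, and 136 at 7 d, the 96.7 percentile. In an intron of Sh3bp4, a regulator of endocytosis, it was 27 in WT and 129 at 7 d, and both peaks lay under YAP peaks at 7 d. The other 3 had no YAP peak. They lay in an intron of Manba, a lysosomal mannosidase (27 and 124 fragments), in an intron of Fam107b, 829 bp from its start (28 and 139), and between genes 107203 bp from Magi1, a tight-junction scaffold (27 and 113). Among the 5 that fell most, the largest fall was between genes 67946 bp from Akap13, a kinase-anchoring protein, with 63 fragments in WT, the 87.1 percentile, and 22 at 7 d, the 10.7 percentile. The others were a peak near Ednrb, the endothelin B receptor (50 and 19), a peak between genes on chromosome 2 (57 and 23), one over a coding exon of Ddr2, a collagen receptor (63 and 25), and one in an intron of Itga9, an integrin subunit (45 and 20). These 10 were chosen for their shift, so the shifts are a description.

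The 10 added peaks with the highest pileup held between 267 and 321 fragments and stood at ranks 14 to 63 of the 7 d list. The highest, with 321 fragments, lay in an intron of Exph5, a Rab27 effector in secretion. Next came a peak between genes on chromosome 16, 56668 bp from Krtap16-7, with 312 fragments, and one on chromosome 7 with 304, 112791 bp from the nearest protein-coding start. Another, with 273 fragments, was 1260 bp from a start of Ect2, a protein needed for cytokinesis, within an intron of the lincRNA 1700125G22Rik. The remaining 6 were in introns of Ncald (279), a neuronal calcium sensor, and Tex2 (269), and between genes nearest to Lyplal1 (298), Gm9747 (303), Mrpl36 (268) and Hs6st1 (267), an enzyme of heparan sulfate synthesis. All 10 had been called after 3 days of induction and all 10 overlapped a YAP peak at 7 d, whereas 66.6% of all added peaks had been called at 3 days and 1.86% had a YAP peak. The share called at 3 days went from 47.2% (45.5 to 48.8) in the lowest pileup class to 87.2% (85.5 to 88.8) in the highest, so the strongest added peaks were also the ones most often seen at the earlier time. The YAP list at 7 d held only 1478 peaks, against 38984 TEAD peaks, and 3.58% of all 7 d TEAD peaks overlapped one. So short a list leaves most TEAD peaks without a YAP peak, which does not show that YAP was absent there.

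The 263 WT peaks without a 7 d counterpart were few and mostly weak. Their median pileup was 35 fragments, against 40 for the shared WT peaks, and their median distance to a protein-coding start was 35204 bp, against 9562 bp. Their share went from 8.71% (6.74 to 11.2) of the lowest class of WT pileup to 0.861% (0.368 to 2) of the highest. Of the 5 with the highest pileup, 1 lay on unplaced sequence and 4 in introns of Mid1, a microtubule-associated ubiquitin ligase, on the X chromosome. Their fold enrichments over local background were only 1.62 to 2.75, against a median of 4.39 for all lost peaks, so in these regions the background was high too. A further lost peak, noted after its value was seen, stood at -2001 bp from the start of Cyr61 with 40 fragments in WT.

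Added peaks were a little farther from protein-coding starts than shared ones. A peak was placed at a promoter when it overlapped the stretch from 2 kb upstream to 1 kb downstream of a protein-coding start. Promoters held 30.9% (29.7 to 32.1) of shared 7 d peaks, 24.1% (23.6 to 24.5) of added peaks and 7.39% (4.78 to 11.3) of lost WT peaks. Outside promoters, 41.4% of added peaks were in gene bodies and 34.5% between genes, against 36.3% and 32.9% of shared peaks. The median distance from summit to start was 12451 bp for added and 9400 bp for shared peaks. This difference depended on peak strength. In the lowest pileup class 33.8% (32.2 to 35.4) of added peaks were at promoters, more than the 25.9% (16.1 to 38.9) of the 54 shared peaks there, although the intervals overlap. In the highest class the values were 8.33% (7.08 to 9.78) and 26.6% (24.8 to 28.4), so the strong added peaks were distal while more of the strong shared ones were at promoters. A WT summit lay within 20 kb of 27.0% (26.5 to 27.5) of added peaks and 20.2% (19.9 to 20.6) of protein-coding starts. Within 5 kb the shares were 10.5% and 10.3%. Added peaks overlap no WT peak by definition, while starts may, so starts are only a rough reference.

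The sequence under the summits differed between the classes. The core GGAATG, searched on both strands in the 100 bp on either side of the summit, was present in 51.0% (49.7 to 52.4) of shared peaks and 32.6% (32.1 to 33.1) of added peaks. It was present in 10.7% of equally long windows 2 kb from the added summits, in 10.3% of those 2 kb from the shared summits and in 7.89% of windows on protein-coding starts. The lost WT peaks, read at their WT summits, held it in 39.3% (33.5 to 45.4), and in 13.6% 2 kb away. Read at WT summits too, the shared peaks held it in 49.1% (47.7 to 50.4). Within 50 bp of the summit, lost peaks (26.1%, 21.1 to 31.8) were close to added ones (25.1%, 24.6 to 25.5). Shared peaks held it there in 38.7% at WT summits and 43.7% at 7 d summits. The longer form GGAATGT, every match of which is also a core, gave 28.8%, 15.8% and 23.3% in shared, added and lost peaks, and 2.82% beside the added summits. Windows with at least 2 cores made up 8.09% (7.40 to 8.84) of shared and 4.47% (4.25 to 4.69) of added peaks, and 0.709% of windows beside the added summits.

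Among strong peaks, shared and added peaks of equal pileup held the core at similar shares, with overlapping intervals. In the highest pileup class the core was present in 59.7% (57.3 to 62.1) of added and 62.5% (60.6 to 64.5) of shared peaks, in the ninth in 47.6% (45.7 to 49.6) and 48.2% (45.4 to 50.9), and in the eighth in 40.2% (38.5 to 41.9) and 41.5% (37.9 to 45.1). In the lowest class it was present in 20.7% (19.3 to 22.1) of added peaks and in 27.8% (17.6 to 40.9) of the 54 shared peaks. The intervals did not overlap in classes 2 and 3, with 23.4% and 27.5% of added peaks against 39.2% (30.1 to 49.1) and 51.9% (41.0 to 62.7) of 97 and 77 shared peaks. Added peaks at promoters held the core in 23.1% (22.2 to 24), those elsewhere in 35.6% (35 to 36.2).

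**Figure D3:**
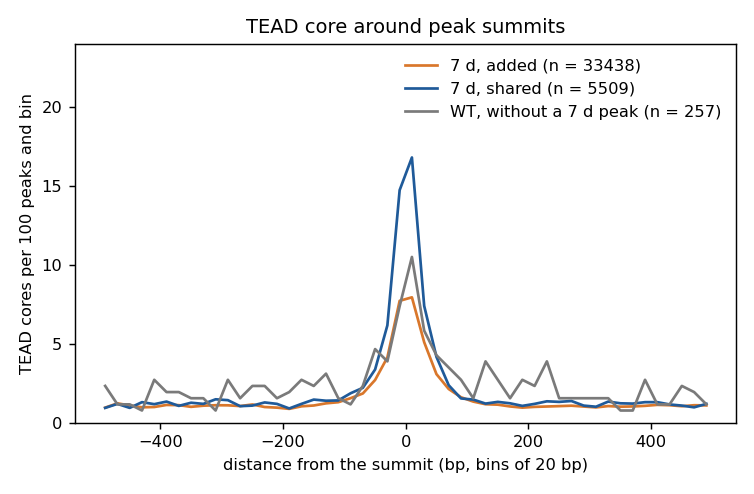
Number of TEAD cores per 100 peaks in bins of 20 bp (vertical axis) by distance from the summit (horizontal axis), for added and shared 7 d peaks and for WT peaks without a 7 d peak. The cores were gathered within about 50 bp of the summit, with 16.8 per 100 shared peaks and 7.95 per 100 added peaks in the bin just right of it, against 0.96 per 100 added peaks in the bin 490 bp left of it.

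Elements of other factors were searched in the same windows. FOXA factors open liver chromatin, HNF4A and C/EBP factors keep hepatocytes differentiated, and AP-1 factors often bind beside TEAD. The FOXA element TGTTTAC was present in 5.75% of added and 5.82% of shared windows, against 2.97% beside the added summits. The HNF4A element CAAAGTCCA was present in 1.72% and 1.52%, against 0.335%, and the C/EBP element TTGCNNAA in 14.9% and 15.1%, against 8.29%. The AP-1 element TGANTCA was the only one of these 4 whose intervals did not overlap, with 8.94% (8.63 to 9.25) of added and 7.33% (6.67 to 8.05) of shared peaks. Beside the summits it was also a little more frequent for added peaks, 6.15% (5.9 to 6.41) against 5.55% (4.98 to 6.19), with overlapping intervals. In the highest pileup class it was present in 12.7% (11.2 to 14.5) of added and 8.45% (7.38 to 9.65) of shared peaks. Outside promoters, over all classes, the shares were 10.1% (9.71 to 10.5) and 8.39% (7.56 to 9.32). At promoters the AP-1 intervals overlapped, with 5.33% (4.86 to 5.84) and 4.94% (4.01 to 6.08). The SP/KLF element GGGCGG was present in 15.1% (14.2 to 16.1) of shared, 10.8% (10.4 to 11.1) of added and 3.89% (2.13 to 7.01) of lost peaks. At promoters it was present in 35.3% (33.1 to 37.6) of shared and 31.4% (30.4 to 32.4) of added peaks, elsewhere in 6.16% (5.44 to 6.97) and 4.23% (3.99 to 4.48), and in 38.6% of windows on starts. The ETS element CCGGAAG was present in 3.81% (3.34 to 4.35) of shared, 3.05% (2.87 to 3.24) of added and 0.778% (0.214 to 2.79) of lost peaks. At promoters its intervals overlapped, with 9.06% (7.79 to 10.5) of shared and 9.17% (8.56 to 9.82) of added peaks, and windows on starts held it in 8.61%. The median GC content of the windows was 47.3% in added, 49.3% in shared and 45.3% in lost peaks, and its part in these shares was not tested. A match shows the letters only, not binding.

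Counted over the gene body with 20 kb on either side, TEAD peaks were listed for a minority of genes in WT and for most at 7 d. Of 22367 protein-coding genes, 5666 (25.3%) had a WT peak in this window and 14871 (66.5%) a 7 d peak. At least 1 added peak was present for 14224 genes (63.6%), 9227 of which had no WT peak, and at least 5 added peaks for 3008 genes (13.4%). With the 7 d list limited to its strongest 5695 peaks these counts were 2577 and 4, and with the 7 d background raised 1997 genes had at least 5. With other gene windows or the nearest start only, between 1178 and 1989 genes had at least 5. Fewer peaks at 7 d than in WT were counted for 34 genes. A promoter peak was present for 1839 genes in WT and 8167 at 7 d, only at 7 d for 6341 (28.3%) and only in WT for 13. The number of added peaks was larger for genes with WT peaks than for genes without: 55.2% of genes without a WT peak gained at least 1, with a median of 1, against 86.2% of genes with 1 WT peak (median 2) and 97.3% of genes with 3 or 4 (median 6). Among the 68 genes with 5 to 9 WT peaks the share was 95.6% and the median 8.5, and the 5 genes with 10 or more had a median of 4. Window length moves with these counts. The median window was 184 kb for the 440 genes with at least 10 added peaks and 47.3 kb for genes with 0, and the Spearman coefficient of length and added peaks over all genes was 0.321, given as a description because neighbouring windows share peaks.

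The genes with most added peaks were long. The first 3 were gene models that run over other genes: Gm20388, with 119 added peaks over 4434882 bp that contain 72 other genes, Fgfr2, a fibroblast growth factor receptor, with 42 over 3009069 bp and 31 other genes, and Arfip1, an Arf-binding protein, with 33 and 5 other genes. When each peak was given only to the nearest protein-coding start, they had 0, 15 and 6. The next 9 held at most 1 other gene. Arid5b, a chromatin regulator of metabolism, and Zmiz1, a coactivator of Notch1 and other factors, each had 7 WT peaks, 36 at 7 d and 29 added. By nearest start these became 30 and 34. Ptprg, a receptor phosphatase, had 1 WT and 30 peaks at 7 d. Nedd4l, a ubiquitin ligase, had 4 and 35, Nav2, a cytoskeletal protein of neuronal growth, had 7 and 34, and Rora, a nuclear receptor of lipid metabolism and circadian rhythm, had 4 and 32. Prkce, a protein kinase C isoform, had 6 and 33, though 6 added by nearest start, Sik3, a kinase of gluconeogenic control, had 3 and 29, and Zbtb20, a repressor of Afp in the adult liver, had 4 and 30.

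Among genes with at least 5 added peaks, the density of added peaks per 100 kb put short windows first. Alb, the gene of serum albumin and a hepatocyte product of very high output, had 18 added peaks, 32.3 per 100 kb, with 4 peaks in WT and 22 at 7 d. The strongest Alb peak, at -10701 bp from the start, was shared, with 262 fragments in WT and 350 at 7 d, and ranked 10 in both lists. The peak at the Alb start had 28 fragments in WT, the 3.5 percentile, and 69 at 7 d, the 84.5 percentile. The 18 added Alb peaks held between 18 and 80 fragments, so all of them were weaker than the strongest shared peaks of the locus.

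Junb, which encodes a Jun protein of AP-1, had 2 WT peaks and 13 at 7 d. The 11 added peaks of Junb held between 18 and 52 fragments, and the shared peak 18645 bp downstream of its start held 111 in WT and 268 at 7 d. The other dense windows were those of Npn2 (13 added, a model of 75 bp), the histone genes Hist1h3g (12) and Hist1h2bb (11), Slc50a1 (12), a sugar transporter, its neighbour Efna1 (13), an ephrin, 3010026O09Rik (16), Gm17664 (11) and Gm10382 (10). The windows of Slc50a1 and Efna1 overlap, so these share peaks.

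**Figure D4:**
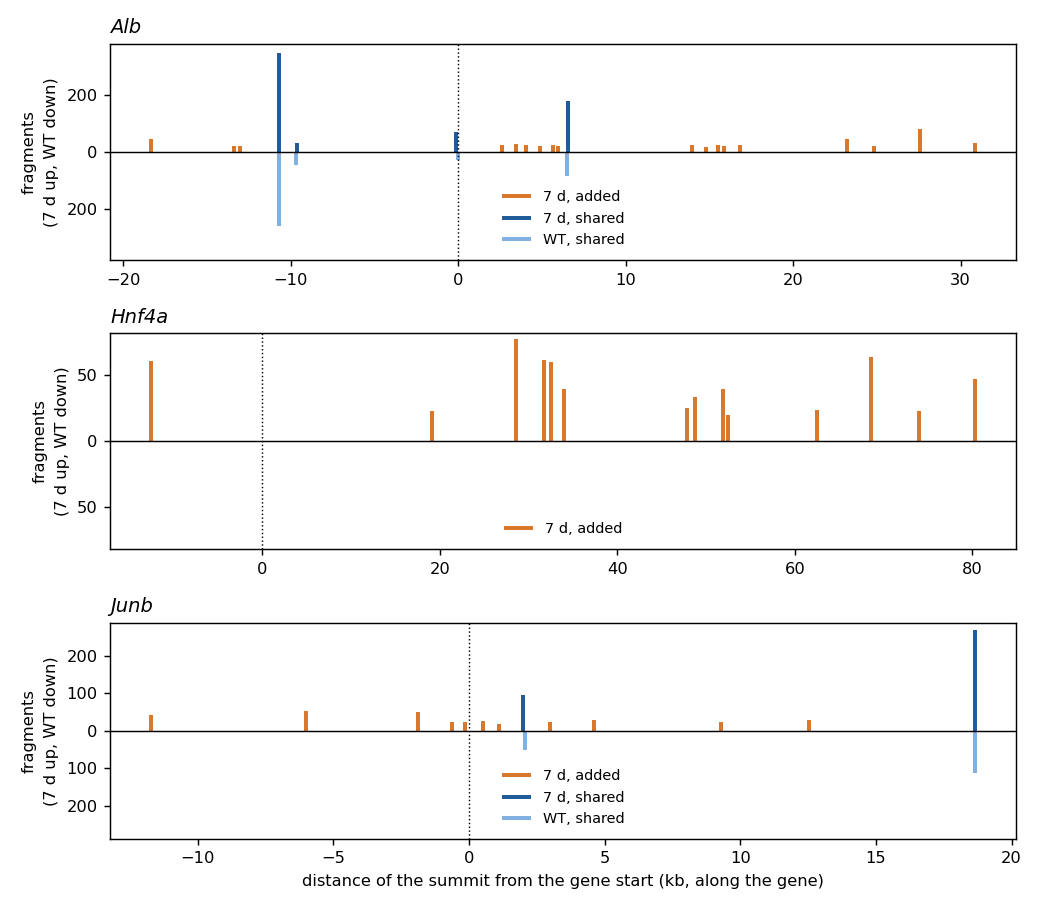
TEAD peaks around Alb, Hnf4a and Junb by distance of the summit from the gene start in kb along the gene (horizontal axis), with pileup in fragments drawn upward for 7 d and downward for WT on a separate scale for each gene. Added peaks are orange, shared 7 d peaks dark blue and shared WT peaks light blue, and the dotted line is the gene start, the outermost one of the gene model. Hnf4a had 0 WT peaks and 14 at 7 d, while the added peaks of Alb and Junb were weaker than the strongest shared peak of each gene, which held 350 and 268 fragments at 7 d.

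Genes for the hepatocyte state gained many TEAD peaks. Of the 15 hepatocyte transcription factors listed, all 15 had at least 1 added peak and 11 had at least 5, with a median of 7, where all protein-coding genes gave 63.6%, 13.4% and a median of 1. The median window of these genes was 67.9 kb, against 55.4 kb for all. Hnf4a, the nuclear receptor that maintains hepatocyte identity, had 0 peaks in WT and 14 at 7 d. The Hnf4a peaks held between 20 and 78 fragments, and 13 of them lay downstream of the gene start, from 19117 to 80296 bp. That start is the outermost one of the gene model, so a start inside the gene may lie nearer to some of these peaks. Nr5a2, a nuclear receptor of bile acid and cholesterol metabolism, had 3 WT peaks and 20 at 7 d, of which 17 were added, and its highest pileup was 42 fragments in WT and 99 at 7 d. Nr1i2, the xenobiotic receptor PXR, had 10 added peaks, and Ppara, the regulator of fatty acid oxidation, and Nr1h4, the bile acid receptor FXR, had 9 each. Cebpb had 2, the fewest of the list. Promoters had a peak for 2 of the 15 genes in WT and 10 at 7 d, so 8 gained one, where 28.3% of all genes did.

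Of 17 genes of hepatocyte function, all 17 had an added peak and 10 had at least 5, with a median of 6, against the same 63.6%, 13.4% and 1. Tat, an enzyme of tyrosine breakdown, had 0 WT peaks and 10 at 7 d, the strongest with 39 fragments. G6pc, the glucose-releasing enzyme of gluconeogenesis, had 2 WT peaks and 8 at 7 d, with the highest pileup 93 fragments in WT and 188 at 7 d. Cyp7a1, the rate-limiting enzyme of bile acid synthesis, had 0 and 4, with at most 60 fragments. Cyp2e1 and Glul, both expressed near the central vein, had 1 added peak each. Promoter peaks were present for 4 of these genes in WT and 14 at 7 d, against 8.22% and 36.5% of all protein-coding genes.

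Known YAP targets gained peaks at a lower median than the hepatocyte genes. Of 22 listed targets, 20 had an added peak and 9 had at least 5, with a median of 3, against 63.6%, 13.4% and a median of 1 for all genes. The median window of these genes, 73.0 kb, was longer than the 55.4 kb of all protein-coding genes. Ctgf, a matricellular protein and classical YAP target, had its TEAD peak at the start in both lists, 83 fragments and the 94.8 percentile in WT, 253 fragments and the 99.8 percentile at 7 d, where a YAP peak overlapped it. Ctgf added only 2 peaks in its window, with 28 and 29 fragments, and 13 by nearest start, 11 of which were beyond 20 kb. Cyr61, a related matricellular protein, had a start peak of 87 fragments in WT and 155 at 7 d. An added peak with 149 fragments lay 16903 bp downstream of that start. Ankrd1, a cardiac and YAP-responsive ankyrin protein, had 0 peaks in WT and 7 at 7 d, the strongest with 96 fragments. Amotl2, an angiomotin that retains YAP, had 3 and 13, with highest pileups of 176 and 253. Crim1 had 14 added peaks, Asap1, an Arf GTPase-activating protein, had 13, and Igfbp3, which binds insulin-like growth factors, had 7 with 0 in WT. By nearest start these became 8, 15 and 1, so most added peaks in the Igfbp3 window lay nearer to another start. Fjx1 and Foxf2 had 0 in both lists.

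The genes of the pathway itself were among those bound. Of 9 YAP, TAZ, TEAD and VGLL genes, 7 had an added peak (77.8%, against 63.6% of all genes), 3 had at least 5 (against 13.4%), and the median was 4. Their median window was 113 kb, against 55.4 kb for all genes, and longer windows hold more added peaks. Tead1 had 4 WT peaks and 14 at 7 d, and its start peak held 34 fragments in WT and 81 at 7 d. Tead4 had 1 and 4, and its start peak held 73 in WT and 233 at 7 d, with an added peak of 96 fragments at -1289 bp. Yap1 had 0 and 7, and its highest pileup at 7 d was 109. Vgll4, a cofactor that competes with YAP for TEAD, had 5 and 16, with highest pileups of 106 and 280. Tead2 and Vgll2 had 0 in both lists. Of 13 Hippo kinases and regulators, 11 had an added peak (84.6%) and 4 had at least 5, with a median of 4. The median window of these 13 genes was 117 kb. Wwc1, the upstream activator Kibra, had 5 WT peaks and 23 at 7 d, of which 18 were added, and Lats2, the kinase that inactivates YAP, had 1 and 8. Mob1b, a LATS cofactor, had 5 peaks at 3 days but 0 at 7 d and 0 in WT, and Amotl1 had 1 at 3 days and 0 in both others.

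Biliary and progenitor genes, which hepatocytes can express on dedifferentiation, included several with peaks at 7 d but not in WT, and 3 with 0 in both lists. Of 14 genes, 11 had an added peak (78.6%, against 63.6% of all genes) and 6 had at least 5 (against 13.4%), with a median of 3.5. Sox9, a biliary transcription factor, had 0 WT peaks and 3 at 7 d with 22 to 34 fragments, but 22 added peaks had the Sox9 start as the nearest one, at a median of 209 kb and with up to 142 fragments. Afp, the fetal albumin relative, had 0 and 10 peaks, with up to 80 fragments, and some of them also fall in the window of its neighbour Alb. Prom1, a membrane protein of progenitor cells, had 0 and 10, with 1 of 166 fragments 118838 bp downstream of the start. Spp1, osteopontin, had 0 and 6, and Hes1, a Notch target, had 1 and 9. Notch2, a receptor of biliary fate, had 7 and 11. Krt7, Krt19 and Epcam, markers of bile duct cells, had 0 in both lists.

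Among AP-1 genes, 7 of 9 had an added peak (77.8%, against 63.6% of all genes) and 4 had at least 5 (against 13.4%), with a median of 3. Fos had 0 peaks in WT and 8 at 7 d, the strongest with 172 fragments 6236 bp downstream of the start, and Jun had 0 and 2. Of 14 actin and adhesion genes, 13 had an added peak (92.9%) and 8 had at least 5, with a median of 5. Their median window was 79.4 kb, against 55.4 kb for all genes. Myh9, non-muscle myosin heavy chain, had 3 and 17, with its promoter peak at 146 fragments in WT and 267 at 7 d. Ctnnd1, the p120 catenin, had a shared peak of 265 fragments in WT and 307 at 7 d, and 6 added peaks of at most 32. Of 12 cell cycle genes, all 12 had an added peak and 2 had at least 5, with a median of 3. Ccnd1, cyclin D1, had 5 and 10, and the highest pileup was 102 in WT and 224 at 7 d. E2f1 had a single added peak with 139 fragments, 1928 bp downstream of its start. Myc had 0 and 4 peaks in its window, all of them weak (19 to 29 fragments), but by nearest start Myc had 43 added peaks, at a median of 266 kb and with up to 188 fragments, the largest number of any gene. Myc belongs to the lists, but this count by nearest start was singled out after the values were seen. No member of these 9 lists had fewer peaks at 7 d than in WT. Such genes were rare everywhere, 34 of 22367 (0.152%), so this does not set the lists apart.

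**Figure D5:**
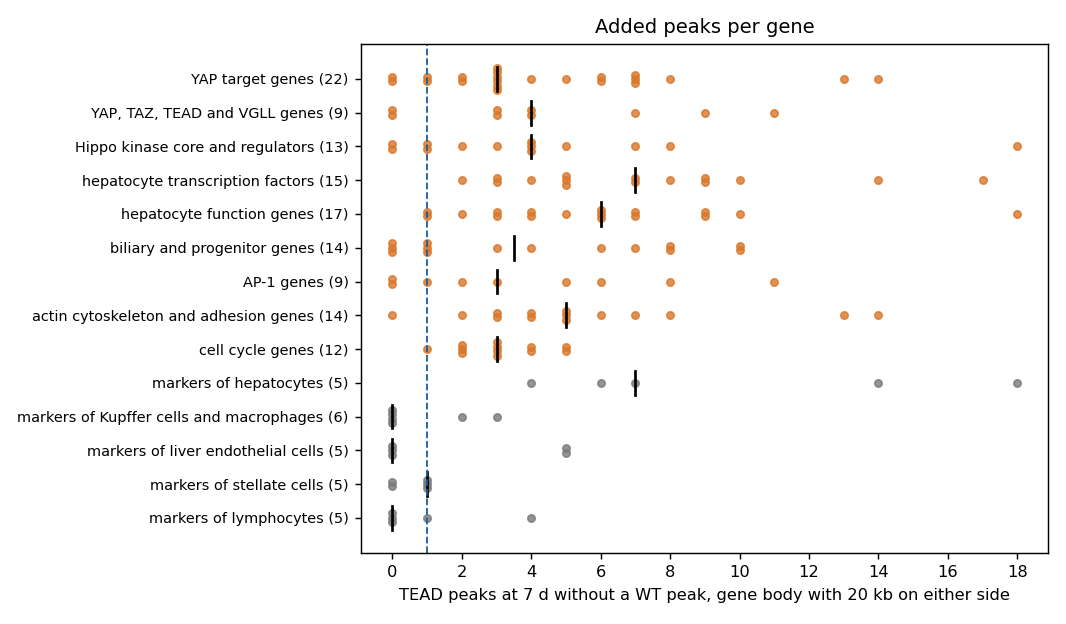
Added TEAD peaks per gene (horizontal axis, number of 7 d peaks without a WT peak in the gene body with 20 kb on either side) for each gene of the lists (points, number of genes in parentheses), with list medians as black bars and the median of all protein-coding genes, 1, as the dashed line. Hepatocyte transcription factors and hepatocyte function genes had the highest list medians, 7 and 6, and markers of other liver cells had medians of 0 or 1.

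Marker genes of hepatocytes carried more TEAD peaks than those of other liver cells. All 5 hepatocyte markers (Alb, Ttr, Apob, Cps1 and Hnf4a) had added peaks, between 4 and 18, and all 5 had a promoter peak at 7 d. Summed over the list, they had 7 peaks in WT and 56 at 7 d, of which Alb alone had 4 and 22. All 5 also belong to the hepatocyte lists above, so their counts are not a separate result. Of all protein-coding genes, 63.6% had an added peak. Of 6 Kupffer cell and macrophage markers 2 had one, and Clec4f, Cd5l, Adgre1 and Marco had 0 peaks in both lists, with sums of 1 and 6. Of 5 endothelial markers 2 had an added peak, Stab2 and Lyve1 with 5 each, Pecam1, Kdr and Tek were at 0, and the sums were 2 and 12. By nearest start Stab2 and Kdr had 3 added peaks each and Lyve1 had 0. Of 5 stellate cell markers 3 had an added peak, with sums of 0 and 3. The windows of the stellate marker Pdgfrb and the macrophage marker Csf1r overlap, and the highest added peak of each held 100 fragments. Of 5 lymphocyte markers 2 had an added peak, with sums of 1 and 6. Promoter peaks were at 0 in both lists for the markers of these 4 other cell types. Of all protein-coding genes, 8.22% had one in WT and 36.5% at 7 d, so the WT zeros say little. The lists are short and their windows differ, and the part of other cells in the added peaks was not tested.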

How the data were processed

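TEAD was measured by ChIP-seq on formaldehyde-fixed mouse liver. According to the study's methods, reads were aligned to mm9 with BWA 0.6.2, the replicates of a group were merged and duplicates removed, and the input came from published data. The caller was MACS 2.0.9, per the file headers, run on 51 bp tags with 167176362 control tags and a cutoff of 1e-05 on p. The deposited pileup is a signal, the extended fragments at the summit. The deposited fold enrichment is the ratio of pileup to local background, and −log10 p-values and q-values were given by the authors' caller. Here the lists were compared with python 3.11.15, pandas 2.3.3 and scipy 1.17.1. Starts and gene bodies came from GENCODE vM1 on NCBIM37, the same assembly as mm9, and all peak ends lay within its chromosomes. Background was taken as pileup divided by fold, which returned the caller's −log10 p with a median absolute difference of 0.0042 at 7 d. The overlap and counting steps were tested on simulated lists.

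No test between conditions was made, since each group is 1 list. Named genes were the 12 with most added peaks, the 10 with most per kb among those with at least 5, the 10 added peaks of highest pileup, 5 shared peaks that rose and 5 that fell in rank, 5 lost peaks and the gene lists. Members and lists were chosen with earlier results of these data known. The alternatives changed the overlap rule, peak filters, ranking, gene windows, promoter definition and motif window. Peaks on unplaced sequence were left out of shares by position. The lists at 3 days and for YAP served only to annotate TEAD peaks.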

Additional observations from a re-analysis of the deposited data

How the results depend on the processing

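No paired analysis was possible because each group is a single list from merged replicates, and for the same reason replicates could not be left out in turn. Peaks not called in WT may be bound below the cutoff, the fragment lengths of the lists differ, and lists of different length make percentiles unequal in meaning. Shared peaks stood above added peaks in median percentile and in promoter share under all 11 alternatives that bear on them, and in TEAD core share under all 10.

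With as many 7 d peaks as WT peaks, added peaks numbered 2710 and 52.6% of WT peaks were found, the median percentiles of shared and added peaks were 59.7 and 39.5, 2577 genes had an added peak and 4 had at least 5, 28.2% and 10.5% of shared and added peaks were at promoters, the median distance of added peaks was 21400 bp, and 59.5% and 55.3% held a core. The other overlap rules left 33531, 34476 and 33616 added peaks. With summits at most 100 bp apart, 79.2% of WT peaks were found, shared peaks had a median percentile of 89.3, 29.1% of them were at promoters and 54.9% held a core. With windows of 400 bp on summits, 93.7% of WT peaks were found. With fold of at least 5, the values were 97.1% found, percentiles of 91.9 and 45.5, 29.5% of shared peaks at promoters, 12900 bp, and cores in 60.8% and 35.3%. With −log10 p of at least 10, the percentile of added peaks was 44.7, 22.8% were at promoters at 13300 bp, and cores were in 53.9% and 35%. With the 7 d background raised by the fragment ratio, 93.6% of WT peaks were found, percentiles were 85.2 and 43.7, 1997 genes had at least 5 added peaks, 22.4% of added peaks were at promoters at 13500 bp, and 35.3% held a core. Merging peaks closer than 500 bp gave 44.1 for the percentile of added peaks, 22.9% at promoters, 13200 bp and cores in 33.2%. Scaling 7 d to the WT tags gave a percentile of 43.9, and ranking by fold or p-value gave 43.8 and 44.0. Genes with at least 5 added peaks numbered 1178 with 2 kb around gene bodies, 1238 within 20 kb of starts and 1989 by nearest start. With starts of all annotated genes, 35.5% and 28.1% of shared and added peaks were at promoters at 7650 bp, and with 1 kb on either side 29.2% and 21.9%. In windows of 50 bp on either side, cores were in 43.7% and 25.1%.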

Other observations

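For some listed genes, added peaks lay far from the start to which they were nearest. These genes were chosen from the lists after their values were seen. By nearest protein-coding start, Nr5a2, the nuclear receptor of bile acid metabolism, had 24 added peaks, 16 of them beyond 20 kb, with 19 to 96 fragments, and 17 in its window, which includes a long gene body. Foxa2, a factor that opens liver chromatin, had 20, of which 15 were beyond 20 kb, with up to 119 fragments, although its window held 7. Gadd45a, a stress-response gene among the listed YAP targets, had 15, of which 11 were beyond 20 kb, with up to 56 fragments, and its window held 5. Ankrd1 stood apart from these, with 8 added peaks by nearest start of which 2 were beyond 20 kb.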
